A study of Mus musculus with 3 samples.

Results

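As ovarian surface epithelial cells of the mouse passed from an epithelial to a mesenchymal state, 10 families of transcription factor genes were followed. The members were all genes that the array names Sox, Fox, Tbx, Klf, Ets, Etv, Elf, Elk, Runx or Tead with a number or letter after the stem, without 4 such names set aside in the rule. They came to 38 genes on 47 probes, out of 17582 features tested from 20371 probes. The cells line the outside of the ovary and were taken from C57/Bl6 females that had been superovulated and mated, so both states share that hormone treatment. Each of 3 cultures, labelled as biological replicates, was divided. One part stayed in 2.5% fetal bovine serum and kept the epithelial phenotype, and the other spent 1 week in 15% serum and became mesenchymal, so serum concentration and phenotype cannot be told apart. Amplified RNA of both parts was put on 2 two-colour Agilent arrays per culture, with the dyes exchanged. Ratios below are log2 of mesenchymal over epithelial signal, averaged over those 2 arrays, with the SD between cultures after the ± sign (n = 3 if no other n is given). A gene was called when its adjusted p in limma, by Benjamini-Hochberg over every feature, was under 0.05. In RNA of whole cultures, fewer cells of a kind and less RNA per cell cannot be told apart.

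These families bind DNA through different folds. Sox proteins use a high-mobility-group box, Fox proteins a forkhead domain, Tbx proteins a T-box, and Klf proteins zinc fingers that contact GC-rich or CACCC sequences. Ets, Etv, Elf and Elk proteins share the ETS domain, and many of them are targets of the ERK kinases that serum activates. Runx proteins bind with the partner CBFB, and Tead proteins switch on genes when the coactivators YAP and TAZ enter the nucleus. In development many of these genes mark a cell lineage, such as Foxa1 and Foxa2 in endoderm, Sox17 and Sox18 in endothelium and Runx2 in bone.

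Of the 38 genes, 10 changed. In mesenchymal cells 7 rose, namely Foxa2, Tead2, Elk3, Foxp1, Klf2, Ets2 and Etv4, and 3 fell, namely Klf9, Foxj2 and Klf5. All 10 changes were below 2-fold, from 0.40 for Etv4 to 0.84 for Foxa2 on the log2 scale in size. Called members made up 26.3% of the genes, against 11.9% of all features tested. For rises alone the background was 5.96% of features and for falls 5.92%. Bright features were called more often: 20.4% of those brighter than the median member, where 7 of 19 members were called, and 7.34% of the others, where 3 of 19 were. The median log2 ratio was 0.02 over the members and -0.0030 over all features. Without culture 3 the count was 4 (Foxa2, Tead2, Elk3 and Foxj2), at limma adjusted p from 0.0268 to 0.0494. It was 8 without culture 2 and 14 without culture 1. In the fit without culture 1 the adjusted p followed the size of the ratio and not a gene's own spread. A call there therefore does not show that the cultures left agree.

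**Figure D1:**
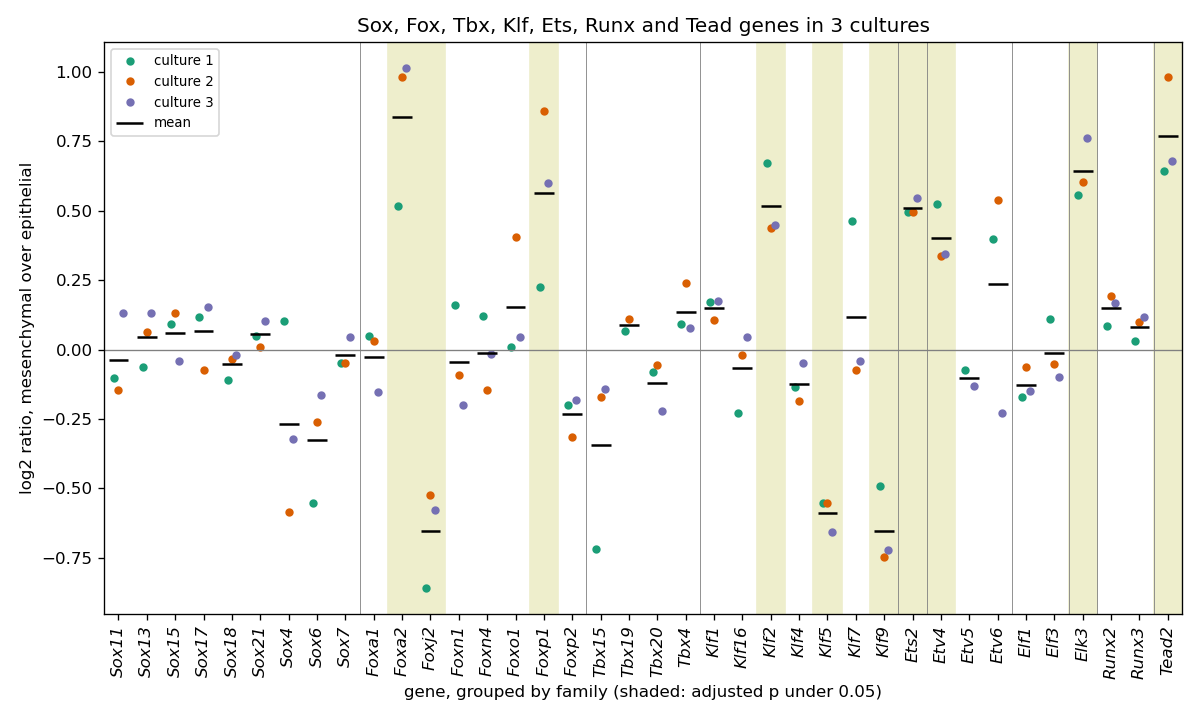
Log2 ratio of mesenchymal over epithelial RNA (vertical axis) for each of the 38 genes, grouped by family along the horizontal axis; points are the 3 cultures, bars their mean, and shading marks adjusted p under 0.05 in limma. The 10 shaded genes lie on 1 side of 0 in every culture, with means from -0.65 to 0.84, while all 9 Sox genes and all 4 Tbx genes are unshaded.

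The promoters of 3 changed genes are shown because each holds a short sequence known as the binding site of a factor family. They are the 250 bases before the annotated start, from RefSeq on GRCm38.p6, with the site in capitals. The first, Klf9 (chr19:23140976-23141225, plus strand), holds the forkhead sequence GTAAACA. The second, Tead2 (chr7:45215542-45215791, plus strand), holds the Sox sequence ACAAAG. The third, Klf2 (chr8:72318812-72319061, plus strand), holds an AT-rich Mef2 site, which was picked after the promoter had been read.
Klf9: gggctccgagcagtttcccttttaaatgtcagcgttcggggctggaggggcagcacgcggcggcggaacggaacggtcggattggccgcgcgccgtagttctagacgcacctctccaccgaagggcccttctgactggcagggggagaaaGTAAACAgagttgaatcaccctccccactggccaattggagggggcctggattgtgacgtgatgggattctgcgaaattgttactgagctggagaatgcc
Tead2: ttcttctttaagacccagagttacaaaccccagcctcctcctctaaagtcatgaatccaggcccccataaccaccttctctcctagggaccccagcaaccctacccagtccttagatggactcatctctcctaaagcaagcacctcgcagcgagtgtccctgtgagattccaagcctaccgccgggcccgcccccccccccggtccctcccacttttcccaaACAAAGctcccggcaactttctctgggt
Klf2: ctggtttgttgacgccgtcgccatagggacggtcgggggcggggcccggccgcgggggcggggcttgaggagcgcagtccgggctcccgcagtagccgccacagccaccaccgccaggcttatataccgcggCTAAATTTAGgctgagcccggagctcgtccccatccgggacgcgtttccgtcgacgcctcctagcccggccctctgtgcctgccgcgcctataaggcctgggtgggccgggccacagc

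The sites were searched on both strands in all 32851 windows of this length and in the 42 windows of the 30 members with an entry, which include 8 of the 10 changed genes. Klf5 and Etv4 had no entry. GTAAACA was in 3.17% of all windows and in 3 of 42 member windows, those of Klf9, Etv5 and Foxa1. ACAAAG was in 16.5% of all windows and in 10 of the member windows, which belong to Tead2, Foxa2, Foxp1, Foxa1 and Sox6 alone. A gene can have several windows, so counts of windows are not counts of genes. The Mef2 site was in 0.0396% of all windows and in 1 member window, that of Klf2, which also holds the GC box GGGCGGGG at 2 places; the GC box was in 16.1% of all windows and 7 member windows. The Tead sequence GGAATG was in 12.6% of all windows and 5 of the members', those of Elf3, Foxp1, Sox4 and Sox6. The Runx sequence TGTGGT was in 14.0% and 6, those of Klf1, Runx2, Runx3, Sox15 and Sox6. The Ets sequence CCGGAAGT (2.88% of all windows), the T-box sequence TCACACCT (1.12%) and the CArG box that serum response factor binds (1.47%) were found in 0 member windows. GGGCGGGG can overlap itself in long GC runs, and each window was counted once per motif.

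Among the ETS genes found by name the 3 calls were all rises; Elk4, listed under an older name, was lower and is described with the other such genes. Of the 7 ETS genes, 3 rose, 0 fell and 4 were not called, and the class median was 0.24. Over all features 5.96% rose and 5.92% fell, and no count of a family or list was tested against these shares. Elk3, an ETS factor that pairs with serum response factor and represses until ERK phosphorylates it, lies at chr10:93247415-93311159. Its normalised log2 intensity was 12.16, 11.98 and 11.92 in epithelial RNA of cultures 1, 2 and 3, and 12.72, 12.59 and 12.68 in mesenchymal RNA. The groups did not overlap. Here and below, overlap describes values of the same arrays that gave the call and is no further test. Its share over all features was not counted. The ratios of 0.56, 0.60 and 0.76 gave a rise of 0.64 ± 0.11 (adjusted p = 0.00404, 1.56-fold), positive on all 6 arrays. It stayed called without any 1 culture, by a small margin without culture 3 (adjusted p = 0.0465). It was 0.21 and not called (adjusted p = 0.132) on the arrays with epithelial RNA in Cy3, against 1.08 on the others, and not called in the fit of 6 arrays with no replicate block (adjusted p = 0.133). A second Elk3 probe, much dimmer, gave -0.06 ± 0.11, so the rise rests on 1 of 2 probes.

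Ets2, a nuclear effector of Ras and ERK signalling at chr16:95702407-95721049, had the least spread between cultures of the changed genes. Epithelial RNA gave 11.83, 11.81 and 11.35 and mesenchymal RNA 12.33, 12.31 and 11.90, with no overlap. Its ratios of 0.50, 0.49 and 0.55 averaged 0.51 ± 0.03 (adjusted p = 0.00586), and the call was lost without culture 3 (adjusted p = 0.0746). The 2 arrays of a culture differed more: in culture 2 they gave 0.0011 with mesenchymal RNA in Cy5 and 0.99 with it in Cy3. The call was also lost on the arrays with epithelial RNA in Cy3 and in the fit of 6 arrays with no replicate block. The dimmer Ets2 probe had the same sign, at 0.16 ± 0.06, and was not called (adjusted p = 0.234).

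Etv4, a member of the Pea3 subgroup that is induced by ERK signalling, rose from 10.98, 11.05 and 11.39 in epithelial RNA to 11.50, 11.39 and 11.73 in mesenchymal RNA of the same cultures. It lies at chr11:101769747-101785310. The groups almost touch, culture 3 in epithelial RNA being nearly as high as culture 2 in mesenchymal RNA. The ratios of 0.53, 0.34 and 0.34 gave 0.40 ± 0.11 (adjusted p = 0.0207), with 1 array below 0. The call was lost without culture 2 (adjusted p = 0.0738) or culture 3 (adjusted p = 0.125). It was also lost with trend and robust variance in limma and in the fit of 6 arrays with no replicate block. On the arrays with epithelial RNA in Cy5 the ratio was 0.08 and not called. The other Pea3 gene measured, Etv5, was at -0.10 ± 0.04 (n = 2, 1 array of culture 2 having an outlier-flagged spot) and its dimmer probe at 0.07 ± 0.08. Whether Etv4 and Etv5 differ was not tested.

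The remaining ETS genes were not called. Etv6, a repressor needed in blood stem cells, had ratios of 0.40, 0.54 and -0.23, and culture 3 lay on the other side of 0 from both others; a dimmer probe linked to Etv6 through an older name gave -0.22 ± 0.11. Elf1, broadly expressed, was at -0.13 ± 0.06, and Elf3, an epithelial factor, at -0.01 ± 0.11. Of the ETS genes without such a name that were listed, 4 were measured (Gabpa, Ehf, Spi1 and Spdef) and 0 were called by limma or had an unadjusted p under 0.05, with a median of -0.0043; the nearest was Ehf, at an adjusted p of 0.492. The Spi1 probe was saturated on 5 arrays for epithelial and 6 for mesenchymal RNA, so a change of it could not be seen.

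**Figure D2:**
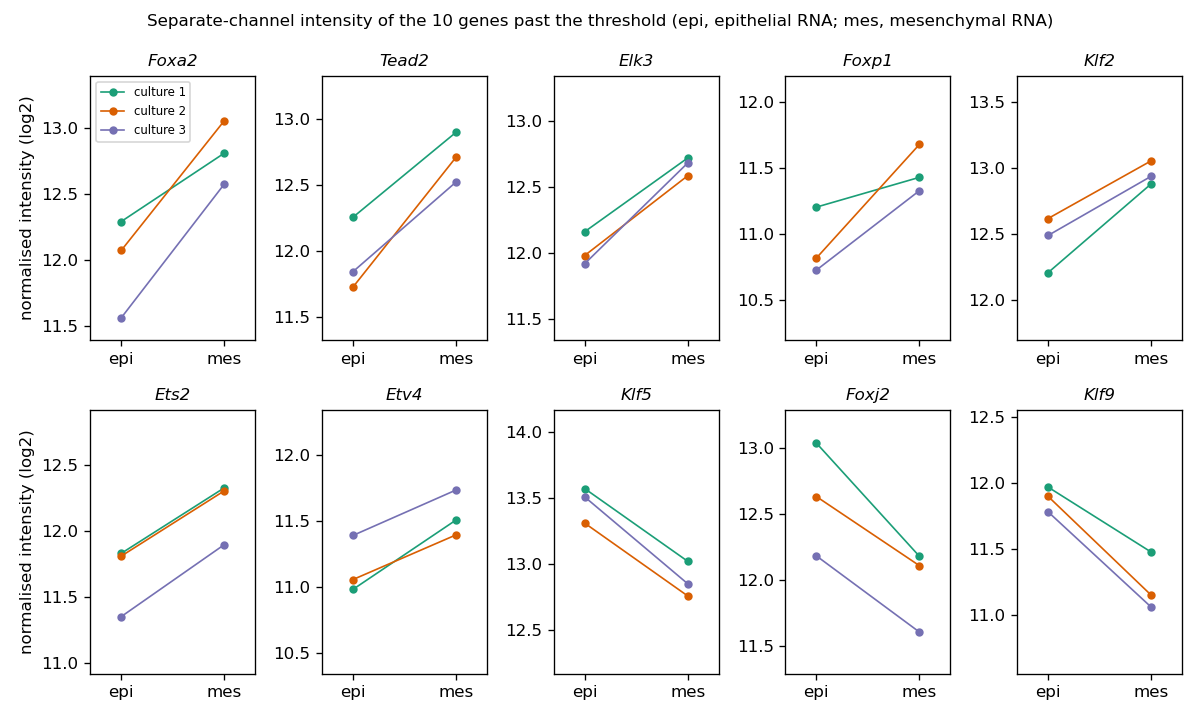
Normalised intensity on a log2 scale (vertical axis, each panel spanning the same range) of the 10 changed genes in epithelial (epi) and mesenchymal (mes) RNA; each line joins the 2 RNAs of 1 culture. All 3 lines slope the same way in every panel, while the cultures differ in level, as for Foxj2, where epithelial RNA ranges from 12.19 to 13.04.

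Genes of the pathways in which these ETS factors act were read from lists. The share called over all features, 11.9%, stands beside these and the later list counts. Of 8 measured genes tied to ERK feedback and the Pea3 subgroup, 3 rose, 0 fell and 5 were not called, with a median of -0.0015. Fosl1, an AP-1 subunit, rose by 0.86 ± 0.05 (adjusted p = 0.00103), Dusp4, a nuclear phosphatase of MAP kinases, by 0.63 ± 0.18 and Dusp6, an ERK phosphatase, by 0.44 ± 0.18. The call of Dusp6 was lost without culture 3 (adjusted p = 0.174), and so was that of Dusp4 (adjusted p = 0.0678). Among 7 measured genes of serum response factor and its partners and targets, Srf fell by 0.65 ± 0.01 (adjusted p = 0.00261) and the immediate early gene Egr1 rose by 0.87 ± 0.37 (adjusted p = 0.0117, and 0.0713 without culture 3), with 5 not called. In the cultures in which Elk3 was higher by 0.56, 0.60 and 0.76, Srf was at -0.65, -0.63 and -0.65. None of 6 measured protease genes associated with Ets1 and Ets2 was called by limma, with a median of 0.03, and 0 of them had an unadjusted p under 0.05.

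Tead2, the 1 Tead gene of the set, was the second largest rise. It encodes a DNA-binding partner of YAP and TAZ and lies at chr7:45215792-45233468. Epithelial RNA gave 12.26, 11.73 and 11.84 and mesenchymal RNA 12.90, 12.71 and 12.52, with no overlap. The ratios were 0.64, 0.98 and 0.68, highest in culture 2. Their mean, 0.77 ± 0.19 (adjusted p = 0.00409, 1.70-fold), was positive on all 6 arrays and stayed called without any 1 culture, but not in the fit of 6 arrays with no replicate block (adjusted p = 0.0991).

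The called genes among the listed Tead coactivators and Hippo pathway genes were all lower, with Yap1 the only coactivator among them. Of 12 measured coactivators and Hippo kinase genes, 4 fell, 0 rose and 8 were not called, and the median was -0.21. Yap1, the coactivator, fell by 0.75 ± 0.14 (adjusted p = 0.00292), with ratios of -0.62, -0.74 and -0.89. Lats2, a kinase that holds YAP in the cytoplasm and is itself a target of it, fell by 0.80 ± 0.06 (adjusted p = 0.00134). Stk3, which activates the LATS kinases, fell by 0.46 ± 0.11; without culture 2 its adjusted p was 0.0843 and without culture 3 it was 0.0728. The Amotl2 probe was saturated for epithelial RNA on all 6 arrays, so its ratio is not given. The other coactivator genes measured were not called. Wwtr1, the TAZ gene, was at 0.05 ± 0.29 (n = 2), Vgll3 at 0.08 ± 0.05 and Vgll4 at 0.05 ± 0.20 (n = 2). Of 8 measured Tead targets, 1 rose and 3 fell, with a median of -0.15; the tissue factor gene F3 was at 2.51 ± 0.19 and the ligand gene Tgfb2 at -2.14 ± 0.11, while Ccn2 was lower on all 6 arrays on a probe saturated in epithelial RNA on 4 of them, so its ratio is not given. Another of the 3 that fell was the LIM protein gene Ajuba, by 0.77 ± 0.18 (adjusted p = 0.00394).

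**Figure D3:**
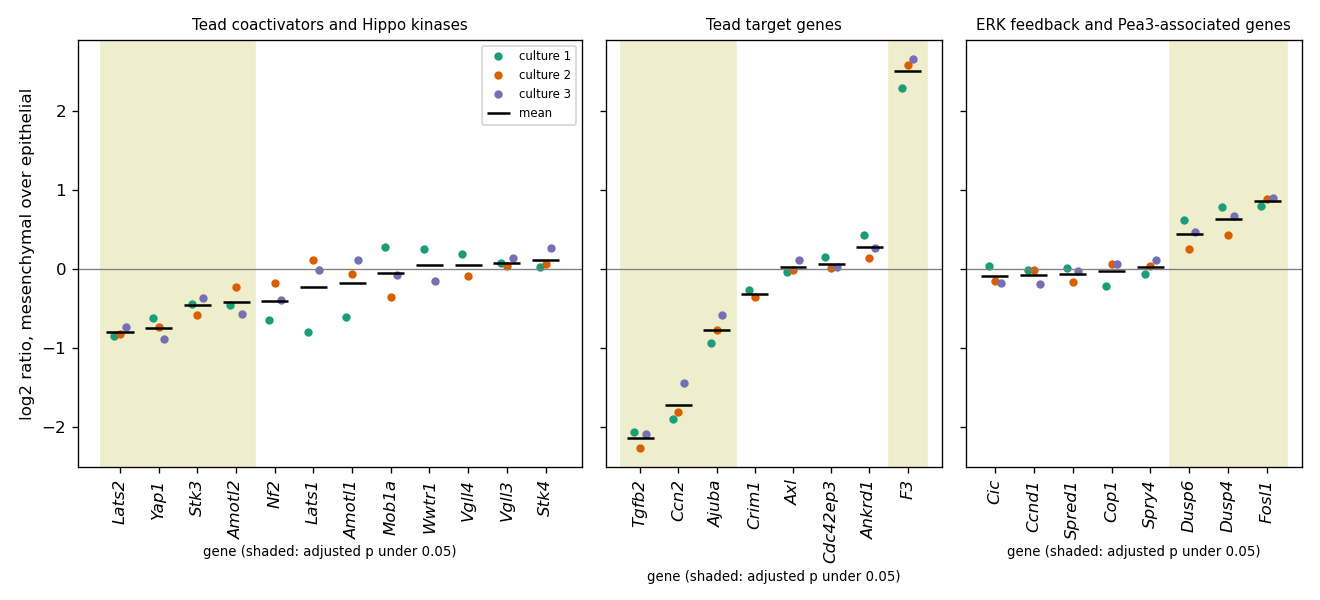
Log2 ratio of mesenchymal over epithelial RNA (vertical axis) for the measured genes of 3 lists, with points for the 3 cultures, bars for their mean and shading for adjusted p under 0.05 in limma. In the left panel all 4 shaded genes lie below 0, in the middle panel 3 lie below and 1 above, and in the right panel all 3 lie above 0; the Amotl2 probe is saturated in epithelial RNA.

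The Klf family split. Of 7 genes, 1 rose, 2 fell and 4 were not called, with a median of -0.07, where 11.9% of all features were called. Klf2, a zinc finger factor best known for quiescence in endothelium and lymphocytes, lies at chr8:72319062-72321654. Epithelial RNA gave 12.21, 12.62 and 12.49 and mesenchymal RNA 12.88, 13.05 and 12.94, with no overlap. The ratios of 0.67, 0.44 and 0.45 averaged 0.52 ± 0.13 (adjusted p = 0.0105), and the call was lost without culture 3 (adjusted p = 0.0691).

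Klf5, a factor of proliferating epithelium at chr14:99298691-99313412, fell from 13.57, 13.31 and 13.51 to 13.02, 12.76 and 12.85, with no overlap. Its ratios of -0.55, -0.55 and -0.66 were close to each other, at -0.59 ± 0.06 (adjusted p = 0.00414). The call was lost by a small margin without culture 3 (adjusted p = 0.0551). Klf9, induced by glucocorticoid and thyroid hormone and a brake on proliferation, lies at chr19:23141226-23168129 and fell from 11.97, 11.90 and 11.78 to 11.48, 11.15 and 11.06. The ratios were -0.49, -0.75 and -0.72, or -0.65 ± 0.14 (adjusted p = 0.00483), and without culture 3 the adjusted p was 0.0521. A brighter probe, linked to Klf9 only through an older name, fell by 0.72 ± 0.20 (adjusted p = 0.00685), so both probes fell. That brighter probe had a dye effect, the part of its ratio that follows the dye and not the RNA, of -1.01. The dye effect of the probe found by name was 0.43. It gave -0.22, -0.16 and -0.30 with mesenchymal RNA in Cy5, and -0.76, -1.33 and -1.15 with it in Cy3. Its call was lost on the arrays with epithelial RNA in Cy3 and in the fit of 6 arrays with no replicate block.

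Klf4, a factor of epithelial differentiation, was at -0.12 ± 0.07 and on 3 arrays above and 3 below 0. Klf16, a repressor, was at -0.07 ± 0.14, and Klf1, the erythroid member, at 0.15 ± 0.04 and above 0 on all 6 arrays without being called (adjusted p = 0.257). Klf7, a factor of neurons and fat cells, was measured by 4 probes at 0.12 ± 0.30, 0.20 ± 0.05, 0.03 ± 0.09 and 0.00051 ± 0.41 from the brightest to the dimmest, none called by limma. The wide spread of the first and last is seen in culture 1, at 0.46 and 0.42, against values below 0 in both others. Of 4 measured Sp genes, the nearest relatives of the family, 0 were called by limma and 0 had an unadjusted p under 0.05. Of 9 measured genes associated with Klf2 and Klf4, 0 rose and 3 fell, with a median of 0.04; the largest change was that of Thbd, which encodes the anticoagulant receptor thrombomodulin and is known as a target of Klf2; it fell by 1.73 ± 0.15 (adjusted p = 0.000215). The keratin gene Krt19 and the junction gene Tjp1 were the others. Krt19 was lower on all 6 arrays, on a probe saturated in epithelial RNA on 2 of them, and Tjp1 was at -0.40 ± 0.21 (adjusted p = 0.0459, but 0.242 without culture 2 and 0.171 without culture 3).

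The Fox family also split, with 2 of 8 genes higher, 1 lower and 5 not called, and a median of -0.02, where 11.9% of all features were called. Foxj2, a forkhead activator at chr6:122820184-122845366, fell from 13.04, 12.64 and 12.19 to 12.18, 12.11 and 11.61. The lowest epithelial value lay just above the highest mesenchymal one. The ratios of -0.86, -0.52 and -0.58 gave -0.65 ± 0.18 (adjusted p = 0.00675). Foxj2 was below 0 on all 6 arrays and had a dye effect of 0.06. It stayed called without any 1 culture, by a small margin without culture 3 (adjusted p = 0.0443).

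Foxa2, a pioneer factor of endoderm, gave the largest mean of the set. It lies at chr2:148042877-148046969. Epithelial RNA gave 12.29, 12.07 and 11.56 and mesenchymal RNA 12.81, 13.05 and 12.57. The groups did not overlap, and the ratios of 0.52, 0.98 and 1.01 averaged 0.84 ± 0.28 (adjusted p = 0.00653, 1.79-fold). With mesenchymal RNA in Cy3 the 3 arrays gave 1.54, 2.17 and 2.13, and with it in Cy5 they gave -0.50, -0.21 and -0.11. The dye effect of the probe, -1.11, was larger in size than the change, so the sign of a single array followed its orientation. Foxp1, a forkhead repressor at chr6:98925342-99522746, showed the same pattern, with 1.21, 2.15 and 1.66 against -0.76, -0.43 and -0.46, and a dye effect of -1.11. Epithelial RNA gave 11.20, 10.82 and 10.73 for Foxp1 and mesenchymal RNA 11.43, 11.68 and 11.33, with no overlap. Its culture ratios of 0.23, 0.86 and 0.60 averaged 0.56 ± 0.32 (adjusted p = 0.0368), and the call was lost without culture 2 (adjusted p = 0.124) or culture 3 (adjusted p = 0.181). Each culture's ratio averages 1 array of each orientation, so a dye effect that is the same on both cancels in the means of Foxa2 and Foxp1. In the fit of 6 arrays with no replicate block both calls were lost (adjusted p = 0.507 for Foxa2 and 0.801 for Foxp1). The call of Foxp1 was also lost with trend and robust variance in limma.

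**Figure D4:**
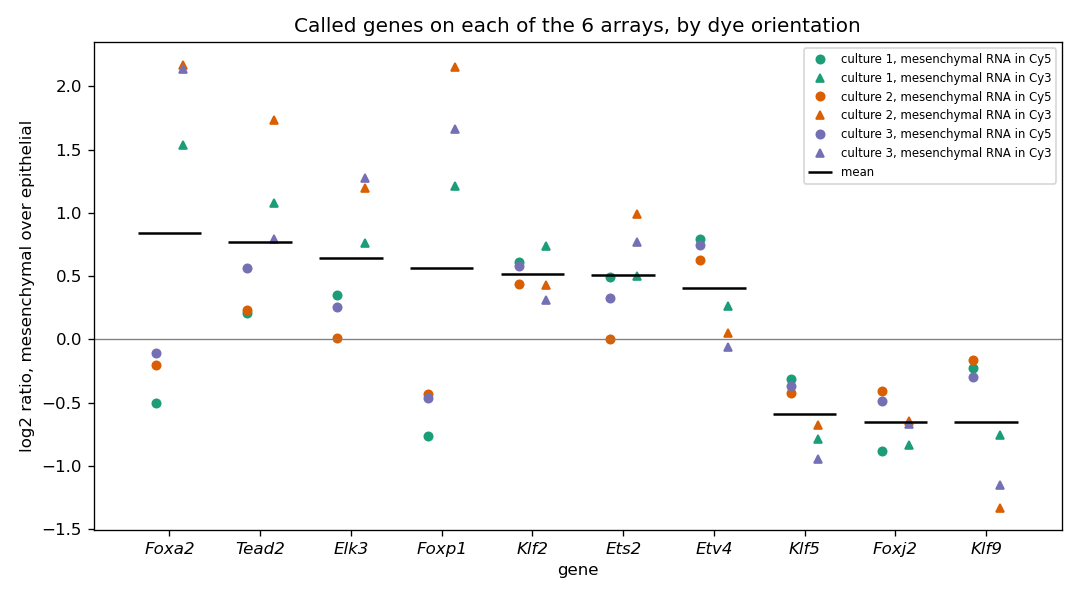
Log2 ratio of mesenchymal over epithelial RNA (vertical axis) on each of the 6 arrays for the 10 changed genes; circles are arrays with mesenchymal RNA in Cy5, triangles those with it in Cy3, and bars the means. The 2 orientations lie on opposite sides of 0 for Foxa2 and Foxp1, whereas 7 of the 10 genes have 1 sign on all 6 arrays.

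Of the other forkhead genes, Foxo1, which growth factor signalling through AKT keeps out of the nucleus, was at 0.15 ± 0.22, with ratios of 0.01, 0.41 and 0.05; without culture 1 it was called at 0.23 (adjusted p = 0.0194). Foxp2, a repressor related to Foxp1, was at -0.23 ± 0.07 (adjusted p = 0.101), and without culture 1 it was called at -0.25 (adjusted p = 0.00923). For Foxo1 and Foxp2 alike, the adjusted p without culture 1 does not count the gene's own spread. Foxn4, a retinal gene and the brightest member, and Foxn1, a gene of thymus and skin, were at -0.01 ± 0.13 and -0.04 ± 0.18, and Foxa1, at brightness percentile 3.77, at -0.02 ± 0.11. Of 10 measured kinase and receptor genes upstream of Foxo proteins, 3 rose and 1 fell, with a median of 0.17. Irs1, an adaptor of the insulin receptor, rose by 0.91 ± 0.05 (adjusted p = 0.000896). Sgk1, a serum-induced kinase that phosphorylates Foxo proteins, rose by 0.86 ± 0.34, with a dye effect of -1.04 and 2 arrays below 0. Pik3r1, a subunit of PI3 kinase, rose by 0.32 ± 0.03. The receptor gene Igf1r was at -0.41 ± 0.21, with a dye effect of -0.52 and 2 arrays above 0. The calls of Pik3r1 and Igf1r were lost without culture 2 or culture 3. Of 14 measured Foxo targets, 3 rose and 1 fell, with a median of 0.00092. The catalase gene Cat rose by 0.64 ± 0.14, with a dye effect of -1.13 and 3 arrays on each side of 0, and Trib1 and Ccng2 by 0.45 ± 0.05 and 0.44 ± 0.05. Sesn3, a stress-induced target, fell by 0.49 ± 0.19, with a dye effect of -0.75 and 2 arrays above 0. The calls of these 4 targets were lost without culture 3 (adjusted p from 0.0551 to 0.114). Of 11 genes linked to Foxc and Foxf factors in mesenchyme, 2 rose, 1 fell and 8 were not called, with a median of -0.07. The receptor genes Pdgfrb (2.50 ± 0.17) and Ptch1 (0.71 ± 0.30, adjusted p = 0.0941 without culture 3) rose and Pdgfra fell (-0.84 ± 0.27). The dye effect was -0.82 for Ptch1, with 2 arrays below 0, and -0.94 for Pdgfra, with 2 above 0. No Foxc or Foxf gene was among the members.

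None of the 9 Sox genes was called by limma. Their means ran from -0.33 to 0.07, with a median of -0.02, and 1 of them, Sox6, had an unadjusted p under 0.05. Sox6, a partner of Sox5 and Sox9 in cartilage, was below 0 on all 6 arrays, with ratios of -0.55, -0.26 and -0.16 and a mean of -0.33 ± 0.20 (adjusted p = 0.0852). It passed with Agilent's processed signals (-0.40, adjusted p = 0.0475) and with the authors' deposited value table (adjusted p = 0.0480). It also passed with a random replicate block (adjusted p = 0.0321) and without culture 1 (adjusted p = 0.0298, which does not count its own spread). Without culture 2 (adjusted p = 0.192) or culture 3 (adjusted p = 0.174) it was not called. Sox4, a factor of progenitors and of tumour invasion, differed between cultures, at 0.10, -0.58 and -0.32. Its mean was -0.27 ± 0.35. Without culture 1 it was -0.45 and called (adjusted p = 2.49e-07), but that p does not count the spread between -0.58 and -0.32.

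The endothelial and endodermal Sox genes were close to 0, with Sox17 at 0.07 ± 0.12, Sox18 at -0.05 ± 0.05 and Sox7 at -0.02 ± 0.05. The neural genes Sox11 and Sox21 were at -0.04 ± 0.15 and 0.06 ± 0.05. A further 2 probes that older names link to Sox11 were both lower and both dimmer, at -0.32 ± 0.13 (adjusted p = 0.0569) and -0.31 ± 0.16 (adjusted p = 0.0790), so the 3 probes do not give 1 value. Sox13 was at 0.04 ± 0.10 and Sox15 at 0.06 ± 0.09. Of 4 measured TCF and LEF genes, which share the HMG box, 0 were called by limma and 0 had an unadjusted p under 0.05, and the same held for 2 measured Sox9 cartilage targets. Markers of endothelium, where Sox7, Sox17, Sox18 and Klf2 are known to act, had 1 of 6 measured genes higher (Flt1, a receptor for vascular growth factors, at 0.56 ± 0.20, adjusted p = 0.0551 without culture 3) and 5 not called. Their summed linear intensity ranged from 13758 to 27485 in epithelial and from 16349 to 25987 in mesenchymal RNA, and their part in the Klf2 value was not tested.

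No T-box gene was called by limma, and 1, Tbx15, had an unadjusted p under 0.05. Tbx15, a gene of limb and skin mesenchyme, was at -0.72 in culture 1 and at -0.17 and -0.14 in the others, giving -0.34 ± 0.32 (adjusted p = 0.160). Tbx4, a hindlimb and lung gene, was above 0 on all 6 arrays at 0.14 ± 0.09 (adjusted p = 0.353), and Tbx20, a heart gene, below 0 on all 6 at -0.12 ± 0.09 (adjusted p = 0.424). Tbx20 and the pituitary gene Tbx19 (0.09 ± 0.03, n = 2) were at brightness percentiles 2.44 and 4.07, where the added offset pulls a ratio towards 0. Of 3 measured T-box and MGA genes without the Tbx name, 0 were called by limma and 0 had an unadjusted p under 0.05.

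Both Runx genes were above 0 in every culture without being called by limma, and 0 of the 2 had an unadjusted p under 0.05. Runx2, the master regulator of bone, had ratios of 0.09, 0.19 and 0.17 and a mean of 0.15 ± 0.06 (adjusted p = 0.278), and its dimmer probe gave 0.20 ± 0.16. Runx3, a gene of lymphocytes and sensory neurons, was at 0.08 ± 0.04, its dimmer probe at -0.04 ± 0.12. Of 7 measured Runx partners and corepressors, 2 rose and 1 fell, with a median of -0.21. Hipk2, a kinase that phosphorylates Runx1, rose by 1.14 ± 0.22 (adjusted p = 0.00133), with ratios of 1.39, 1.07 and 0.97, and the corepressor gene Tle2 by 0.90 ± 0.20 (n = 2). Another corepressor gene, Tle4, fell by 0.41 ± 0.09, with an adjusted p of 0.125 without culture 2 and 0.102 without culture 3. Cbfb, the shared partner, was at -0.16 ± 0.29 and was called without culture 1 (-0.28, adjusted p = 0.00233, which does not count its own spread). Of 3 measured bone targets of Runx2, 1 (Spp1, osteopontin) rose and 2 were not called; the Spp1 probe was saturated in mesenchymal RNA on 2 arrays, so its measured 2.22 is no exact difference.

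**Figure D5:**
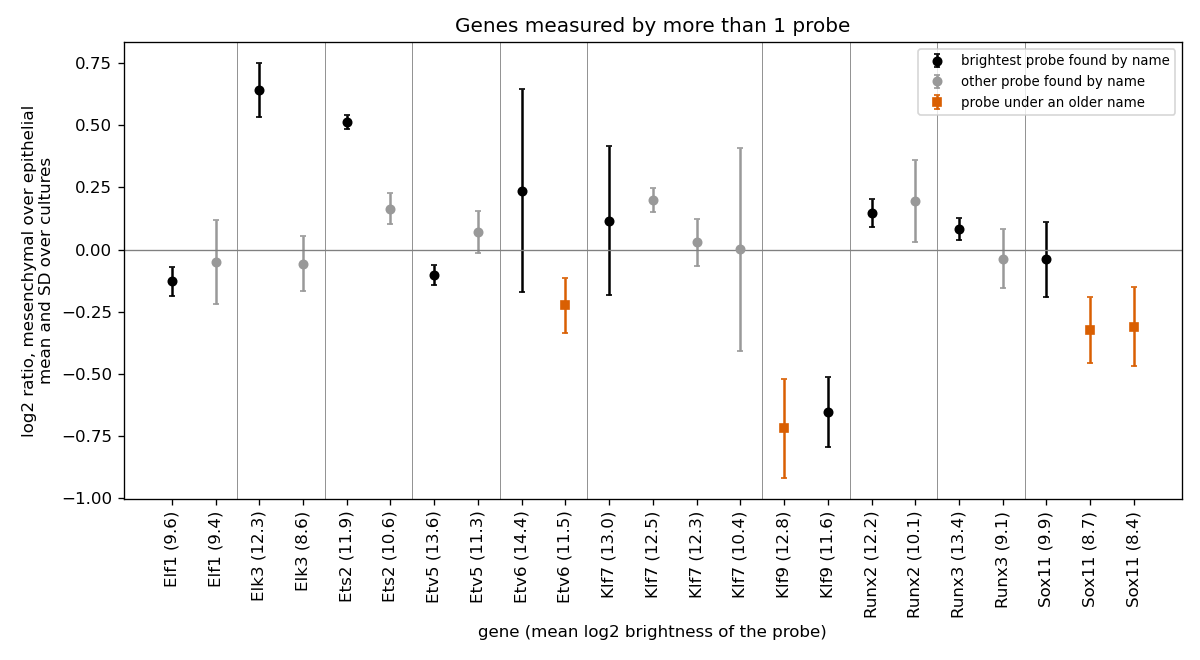
Mean log2 ratio of mesenchymal over epithelial RNA with SD over cultures (vertical axis) for each probe of genes with more than 1, ordered by brightness within a gene; black is the brightest probe found by name, grey another such probe and orange a probe linked through an older name. The 2 Klf9 probes both lie near -0.7, whereas for Elk3 and Ets2 only the brighter probe is past the threshold.

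Genes of the same families that the array lists under older names were not members, and were picked after their probes had been seen. They were 12 genes, of which 0 rose and 2 fell, with a median of -0.07. Elk4, an ETS partner of serum response factor, fell by 0.48 ± 0.21 (adjusted p = 0.0272, and 0.152 without culture 3), with a dye effect of -0.90. Foxk2 fell by 0.43 ± 0.14 (adjusted p = 0.0209, but 0.103 without culture 2 and 0.182 without culture 3), with a dimmer probe at -0.16 ± 0.11. Klf6, an early response gene, was not called on any of 4 probes, which ranged from 0.12 to 0.28. Foxo3 was at 0.15 ± 0.20, Klf10 at -0.06 ± 0.13 and Foxl2, the granulosa factor, at 0.03 ± 0.17.

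Facts of the arrays bear on all these values. All 38 members were brighter on average than the 95th percentile of the negative control spots, and no member probe was saturated. Of all probes of genes, 97.7% passed the same cut, so passing it does not show that a gene was expressed. Between 18.5% and 81.5% of the negative control spots were themselves flagged well above background, by array and RNA. The dye effect passed the threshold for 10035 of the 17582 features. Over the 38 genes Pearson's r was 0.88 between cultures 2 and 3, and 0.75 and 0.74 for culture 1 against each of them, as a description across genes of the same arrays. In the marker lists, 6 of 9 genes of ovarian surface epithelium and mesothelium fell and 0 rose, and their summed linear intensity was 293126 to 323110 in epithelial and 141649 to 169851 in mesenchymal RNA; these sums include clipped signal, since Krt7 was saturated in epithelial RNA on 6 arrays, Krt8 on 3 and Krt19 on 2. Granulosa markers had 2 of 8 lower, smooth muscle and pericyte markers 1 of 7 lower (Acta2, saturated in epithelial RNA on 5 arrays) and germ cell markers 1 of 7 higher. Theca (6 measured), leukocyte (5) and multiciliated (3) markers had 0 called by limma, and 1, 0 and 0 with an unadjusted p under 0.05.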

How the data were processed

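RNA of 3 cultures was measured on 6 arrays, 2 per culture with exchanged dyes. Per the file headers, the scanner files hold spot mean and local background intensity from Agilent's Feature Extraction, in linear units. Its own processed intensity, per the file headers, had background taken off and dyes balanced by lowess, and its log10 ratio is Cy5 over Cy3. In the table of values that the authors deposited, each log10 ratio equals the mean of a culture's 2 arrays once 1 of them is turned, as found from the values. Of tools, the submitters' processing notes name limma alone. Dye orientation came from the names of the deposited arrays.

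Intensities were corrected with normexp (offset 50), then normalised with limma 3.58.1 (R 4.3.3) by loess per array, control spots having weight 0, and turned to mesenchymal over epithelial. Outlier-flagged spots were left out (61 to 467 probes an array, 1639 on 1 array of culture 3), and a culture needed both arrays. Probes had to be well above background for 1 RNA on at least 4 of 6 arrays. The brightest probe stood for a gene, and for a member only probes found by its name. Ratios of 3 cultures were tested against 0 with lmFit and eBayes. With so few arrays, precision is limited by their number. Separate-channel intensities are after loess and Aquantile scaling. The dye effect is the mean log2 ratio of Cy5 over Cy3 over arrays of both orientations.

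Gene names came from gene IDs, symbols or synonyms in a RefSeq table of GRCm38.p6, and all 38 members matched by gene ID. Gene and promoter coordinates are of that build. The fit was also run on simulated data, with planted changes larger than that of any called member, so it does not bear on changes of their size. Members, lists and tests were chosen with earlier results of these data known. Any member could be named; of a list, up to 3 called genes with the largest change were described, others being named where a text on a member needed them. The alternatives were other background, normalisation, filter, probe, variance and array settings and each culture left out.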

Additional observations from a re-analysis of the deposited data

How the results depend on the processing

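The 10 changed members numbered 7 to 14 over alternatives in background, normalisation, filter, probes, spots, variance, threshold and dye orientation, and over the authors' deposited value table. The fit of 6 arrays with no replicate block, in which dye enters the error, was outside that range: it called 3 members (Foxj2, Klf2 and Klf5), 16 genes of the fixed lists and 888 of all features. Leaving out 1 culture gave 4 to 14 members, 16 to 46 list genes and 817 to 5154 features, against 10, 31 and 2088 with all 3. The low values are without culture 3 and the high ones without culture 1, and the cause was not tested. Without culture 1 the adjusted p followed the size of the ratio and not a gene's own spread. Those counts are therefore not on the same footing as the others. At adjusted p under 0.01 the counts were 7, 19 and 933. Arrays with epithelial RNA in Cy3 alone called 59 list genes and 7075 features, and those with it in Cy5 alone 47 and 5880; dye effects are part of these by construction. On the Cy3 arrays alone Foxa2 (-0.27) and Foxp1 (-0.55) turned below 0, and Sox18 (0.27), Foxn4 (0.39) and Etv5 (0.26) were called above 0, while Elk3 (0.21), Ets2 (0.27) and Klf9 (-0.23) lost their calls; on the Cy5 arrays alone Sox11 was called at 0.35 and Etv4 (0.08) lost its call. Taking a member's brightest probe by any name, which was chosen after seeing the data, left the 10 calls in place. For dim probes such as Tbx20 and Foxa1, signal near background limits what ratio can be seen.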
